A study of Sus scrofa with 6 samples.

Results

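The mitochondrial ribosomal proteins of pig subcutaneous fat are described here in animals fed resveratrol, a plant polyphenol, and in animals on a control diet. The members are the genes whose pig symbol starts with MRPL or MRPS followed by a digit. These are 64 of the 22844 rows in the deposited tables, 40 of the large subunit (MRPL) and 24 of the small subunit (MRPS). Total RNA was sequenced from 6 libraries of a Duroc, Landrace and Yorkshire cross, 3 from a diet with 400 mg/kg resveratrol and 3 from a control diet. The labels give neither age nor sex nor length of feeding. They do not state separate animals within a group, and the p-values therefore measure the spread between these libraries, which may be technical. Both groups are whole fat of the same cross. MRPL27, MRPS16, MRPS36 and some other genes of the family matched no row by symbol and are not analysed here.

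The mitoribosome is the ribosome inside mitochondria. It translates the few messenger RNAs of the mitochondrial genome, all of which encode subunits of the respiratory chain and the ATP synthase. Its RNAs come from the mitochondrial genome, whereas its proteins come from nuclear genes, are made in the cytosol and are imported. Some of the proteins have counterparts in bacterial ribosomes and others are particular to mitochondria. In white fat, mitochondria feed fatty acid synthesis and esterification as well as oxidation, and the adipocyte needs both genomes to build a working respiratory chain.

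Library totals ran from 34436239 to 37943877 reads in resveratrol and from 16251536 to 34048559 reads in control, with control 2 the shallowest. All 64 members passed the filter of a mean of at least 0.5 TPM (a level scaled for transcript length and for the library's total) over the 6 libraries. The lowest count of any member in any library was 71 reads. Of 14908 rows tested with edgeR's quasi-likelihood test, 0 passed a Benjamini-Hochberg adjusted p under 0.05, while 329 rows were higher and 644 lower in resveratrol at an unadjusted p under 0.05. Adipocyte markers ran from a mean of 17.8 TPM for LEP to 16295 TPM for FABP4 over the 6 libraries. ADIPOQ (adiponectin) was at 4437 to 4683 TPM in resveratrol and 3614 to 4042 TPM in control. The skeletal muscle markers that have a row summed to at most 1.77 TPM in resveratrol and 2.13 TPM in control.

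Nearly all mitoribosomal proteins had a small positive fold change in resveratrol, and none passed the test. The median log2 fold change (resveratrol over control) was 0.25 for the large subunit and 0.19 for the small subunit, against -0.0075 over all rows tested. The fold change was above 0 in 37 of 40 large subunit members and in 22 of 24 small subunit members, where 48.8% of all rows were above 0. Among the 8021 rows whose mean TPM lay within the members' own range, the median was 0.04 and 56.4% were above 0. No member was called in edgeR (0.0% of all rows were), and the smallest adjusted p of a member was 0.733. DESeq2 called no member either, where it called 0.268% of all rows. At an unadjusted p under 0.05 in edgeR, 4 members were higher, against 2.21% of all rows, and 0 were lower, against 4.32%.

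The median standard error (SE) of a member's log2 fold change was 0.20, close to the median change itself. The upper end of the 95% interval lay under a doubling (log2 of 1) for all 64 members. This also held for 13182 of 14908 rows tested, and for 7667 of the 8021 rows within the members' range of mean TPM. For 63 members the whole interval lay within a doubling and a halving, the exception being MRPL57. The same held for 11059 of all rows tested and for 7105 of the 8021. In CPM (counts scaled to the library's total, here with edgeR's TMM factors), every resveratrol library lay above every control library for 12 members, where this held for 5.67% of all rows. The reverse held for 0 members, where it held for 6.97% of all rows. In TPM the groups did not overlap for 11 members, all higher in resveratrol, against 4.11% of all rows higher and 8.15% lower.

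**Figure D1:**
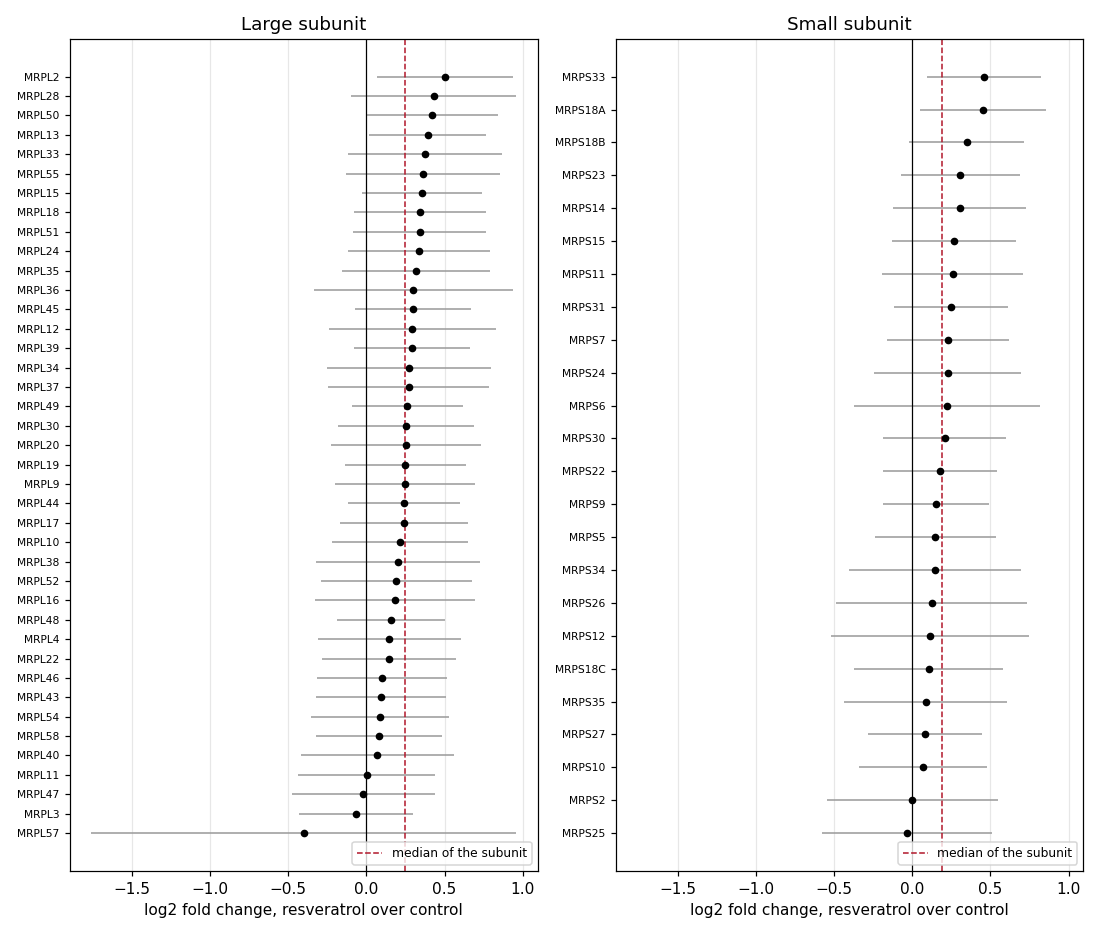
Log2 fold change of each member, resveratrol over control, from edgeR on all 6 libraries (points), with its 95% interval (grey bars) and the median of each subunit (dashed). Most points lie between 0 and 0.50, almost all intervals cross 0, and MRPL57 has by far the widest interval.

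Within the large subunit, the structural core and the mitochondria-specific proteins both held the members with the smallest unadjusted p. MRPL2 (ENSSSCG00000001658.3), a core protein next to the site of peptide bond formation, measured 26.3, 29.6 and 28.1 TPM in resveratrol 1, 2 and 3, against 17.8, 19.2 and 25.4 TPM in control 1, 2 and 3. The groups did not overlap, but control 3 lay close to resveratrol 1. Its log2 fold change was 0.50 (SE 0.20, unadjusted p = 0.0278, edgeR adjusted p = 0.733). MRPL13 (ENSSSCG00000005996.4), a protein with a bacterial counterpart, measured 33.9, 35.4 and 32.6 TPM in resveratrol, against 24.1, 27.2 and 29.9 TPM in control. MRPL50, particular to mitochondria, measured 26.4, 26.3 and 27.3 TPM in resveratrol, against 20.1, 20.6 and 21.9 TPM in control. Both were higher in every resveratrol library, with log2 fold changes of 0.39 (SE 0.17) and 0.42 (SE 0.19). MRPL15, a core protein with a bacterial counterpart, measured 76.6, 64.8 and 62.5 TPM in resveratrol, against 55.3, 52.2 and 59.4 TPM in control, a log2 fold change of 0.36 (SE 0.17). Without control 2, the log2 fold change of MRPL2 was 0.37 and that of MRPL13 was 0.30, while without control 3 they were 0.73 and 0.52. The smallest adjusted p of either gene under any alternative run was 0.436, in edgeR without control 3.

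The 2 most abundant of all members by TPM were of the large subunit. MRPL34 (ENSSSCG00000039295.1), a short protein with a bacterial counterpart, measured 260, 272 and 321 TPM in resveratrol, against 206, 216 and 318 TPM in control. MRPL33, also short and of bacterial type, measured 251, 169 and 268 TPM in resveratrol, against 173, 226 and 174 TPM in control. The groups overlapped in both genes, and resveratrol 2 was the lowest library for MRPL33. MRPL55, MRPL28 and MRPL17, the next of the large subunit, each have a bacterial counterpart. MRPL55 averaged 146 ± 11.2 TPM in resveratrol and 118 ± 23.5 TPM in control, MRPL28 146 ± 8.04 TPM in resveratrol and 112 ± 25.7 TPM in control, and MRPL17 128 ± 3.37 TPM in resveratrol and 112 ± 10.6 TPM in control (SD, n = 3 each). For MRPL28, control 2 stood apart at 82.3 TPM, with the other control libraries at 125 and 129 TPM. Its log2 fold change of 0.43 (SE 0.24) was 0.19 without control 2.

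At the low end, MRPL19 averaged 13.2 ± 1.25 TPM in resveratrol and 11.9 ± 2.64 TPM in control. MRPL47, which lies near the exit of the peptide tunnel, averaged 12.7 ± 1.58 TPM in resveratrol and 13.9 ± 4.21 TPM in control, and MRPL46 13.9 ± 1.54 TPM in resveratrol and 13.7 ± 1.32 TPM in control (SD, n = 3 each). In these 3 genes the groups overlapped. The large subunit members thus spanned a 22.4-fold range of mean TPM in resveratrol and a 20.8-fold range in control. This range is one of levels scaled for transcript length. Over the 64 members, those with higher mean TPM tended to have fewer reads per unit of TPM (Spearman's rho = -0.54, reads relative to the library's total). TPM enters both quantities, so part of a negative rho can be built in. The assembled particle holds most of its proteins in a single copy, but whether the transcripts differ in number to this extent was not tested. The order of the 64 members by mean TPM was nearly the same in the 2 diets (Spearman's rho = 0.99 over 64 genes, a description, since the libraries share the same gene lengths and annotation).

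**Figure D2:**
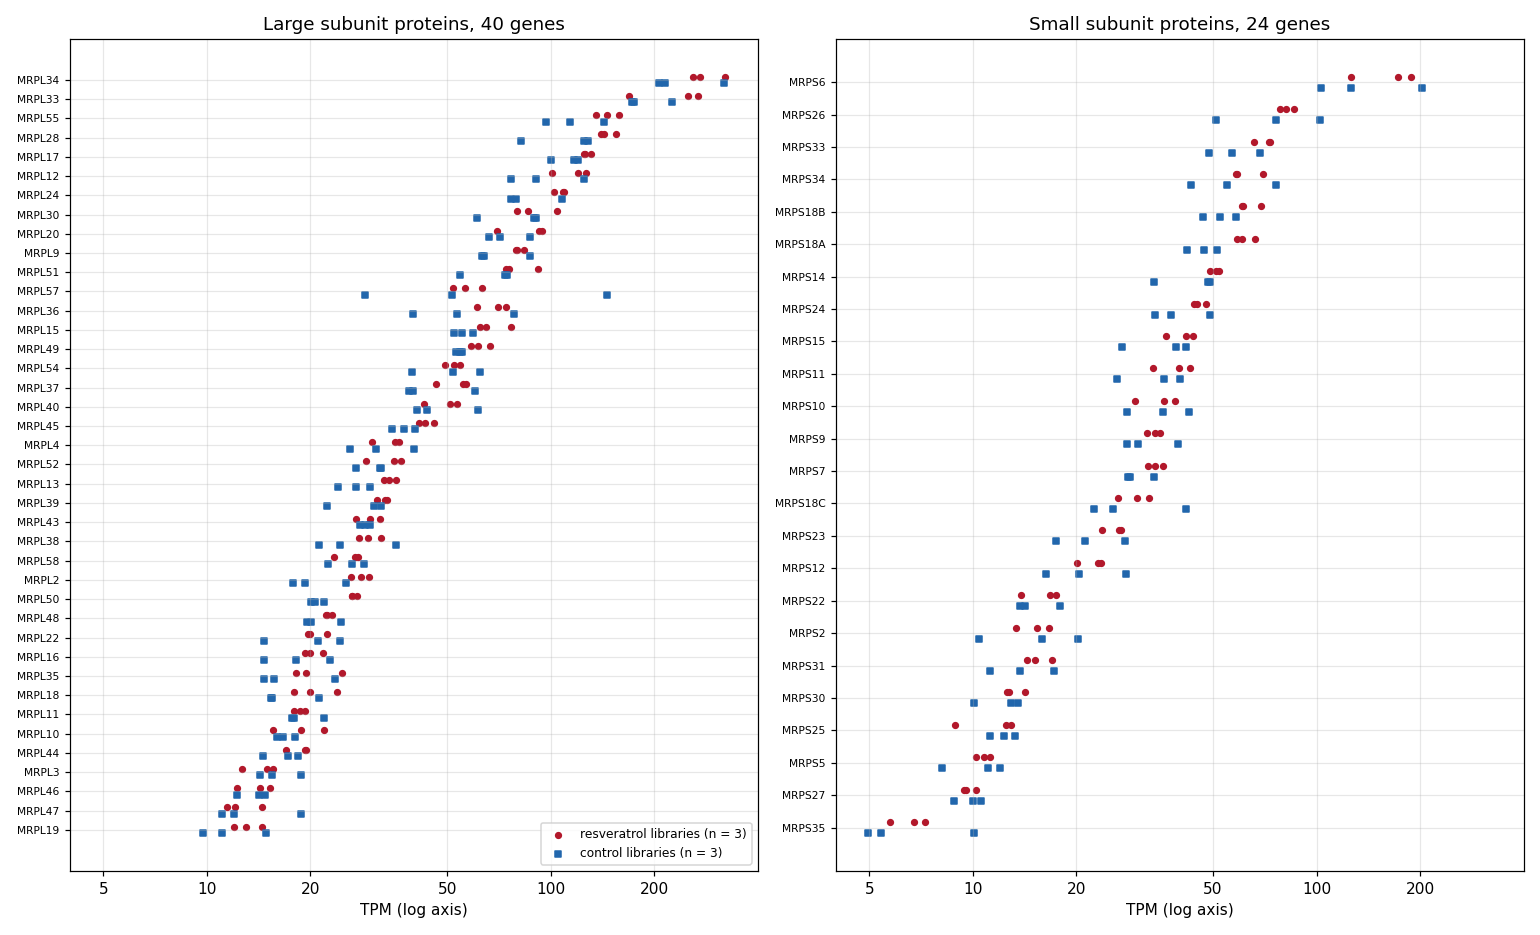
TPM of each member in each library, on a log axis, with the 3 resveratrol libraries as red circles and the 3 control libraries as blue squares, ordered by mean level. Members differ far more from each other than between the diets, with MRPL34 highest and MRPS35 lowest, and MRPL57 has 1 control library far above and 1 far below the rest.

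MRPL12, a stalk protein that recruits translation factors and that also binds the mitochondrial RNA polymerase, measured 101, 127 and 120 TPM in resveratrol, against 90.5, 76.8 and 125 TPM in control. Control 3 was thus within the resveratrol range. MRPL10, which anchors the stalk, averaged 18.8 ± 3.15 TPM in resveratrol and 16.9 ± 1.03 TPM in control (SD, n = 3 each). MRPL45, which ties the ribosome to the inner membrane near the tunnel exit, measured 43.1, 41.4 and 45.9 TPM in resveratrol, against 40.3, 37.5 and 34.5 TPM in control. Its groups did not overlap in TPM but did overlap in scaled counts, and its log2 fold change was 0.30 (SE 0.17). The value was 0.19 (SE 0.23) for MRPL16, near the tRNA sites, while MRPL36, a very small protein with a bacterial counterpart, lay at 0.30 (SE 0.29), and MRPL44, a protein with a nuclease-like fold, at 0.24 (SE 0.16). Without control 2 the log2 fold change was 0.07 for MRPL12, 0.09 for MRPL10, -0.03 for MRPL16 and 0.03 for MRPL36. Without control 3 it was 0.57 for MRPL12, 0.31 for MRPL10, 0.41 for MRPL16 and 0.65 for MRPL36. MRPL58, a peptidyl-tRNA hydrolase of the release factor family, lay near 0 at 0.08 (SE 0.18). MRPL3, a core protein in which human mutations cause cardiomyopathy, had a value of -0.07 (SE 0.16) and averaged 14.4 ± 1.53 TPM in resveratrol and 16.2 ± 2.35 TPM in control (SD, n = 3 each).

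MRPL57 (ENSSSCG00000031280.1), a small mitochondria-specific protein, was the member whose libraries differed most. It measured 52.0, 63.0 and 56.4 TPM in resveratrol, against 51.8, 28.9 and 146 TPM in control. The 3 resveratrol libraries lay close together, while control 2 was below and control 3 above all others. The counts behind these values were 328, 396 and 353 reads in resveratrol, and 272, 71 and 786 reads in control. Its log2 fold change of -0.40 (SE 0.58) became 0.57 without control 3 and -0.82 without control 2. The other members with a value below 0, namely MRPL3, MRPL47, MRPS25 and MRPS2, lay between -0.07 and 0.

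The small subunit held the member with the smallest unadjusted p of all. MRPS33 (ENSSSCG00000013470.3), a mitochondria-specific protein, measured 72.9, 65.6 and 73.1 TPM in resveratrol, against 56.8, 68.5 and 48.7 TPM in control. In TPM control 2 lay above resveratrol 2, whereas in scaled counts it was the lowest library. Scaled counts were 25.7, 21.7 and 27.8 CPM in resveratrol, against 18.9, 16.7 and 19.0 CPM in control. The log2 fold change from counts was 0.46 (SE 0.16, unadjusted p = 0.0185, edgeR adjusted p = 0.733), and limma on log2(TPM + 0.5) gave 0.29. MRPS23, also particular to mitochondria, had a log2 fold change of 0.31 (SE 0.17).

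The 3 paralogs of MRPS18 are related to a single bacterial protein but occupy different places in the particle, and MRPS18A sits in the large subunit. MRPS18A (ENSSSCG00000001692.3) measured 60.8, 66.4 and 58.5 TPM in resveratrol, against 51.2, 42.0 and 47.2 TPM in control. MRPS18B measured 60.7, 69.1 and 61.0 TPM in resveratrol, against 46.8, 52.3 and 58.3 TPM in control. The groups did not overlap in either gene, and the log2 fold changes were 0.46 (SE 0.18) and 0.35 (SE 0.17). MRPS18C measured 29.99, 26.4 and 32.7 TPM in resveratrol, against 25.6, 41.8 and 22.5 TPM in control. Here control 2 was the highest library in TPM, the groups overlapped, and the log2 fold change was 0.11 (SE 0.21). The edgeR adjusted p was 0.733 for MRPS18A and MRPS18B, and the difference between the paralogs was not tested. Without control 2, the log2 fold change of MRPS18A was 0.30.

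MRPS6 (ENSSSCG00000026981.2), with a bacterial counterpart, was the most abundant small subunit member. It measured 172, 188 and 126 TPM in resveratrol, against 103, 126 and 203 TPM in control, and the highest library was a control. MRPS26 averaged 81.8 ± 3.90 TPM in resveratrol and 76.6 ± 25.8 TPM in control, and MRPS34, which stabilizes the small subunit, 62.3 ± 6.44 TPM in resveratrol and 58.0 ± 16.7 TPM in control (SD, n = 3 each). At the low end, MRPS35 averaged 6.60 ± 0.768 TPM in resveratrol and 6.82 ± 2.83 TPM in control, MRPS27, a protein with a helical repeat fold that binds RNA, 9.75 ± 0.425 TPM in resveratrol and 9.82 ± 0.881 TPM in control, and MRPS5, near the entry of the messenger RNA, 10.7 ± 0.472 TPM in resveratrol and 10.4 ± 2.03 TPM in control. Without control 2 the log2 fold change was 0.04 for MRPS6, -0.16 for MRPS26 and -0.10 for MRPS34, and without control 3 it was 0.63, 0.44 and 0.44. In MRPS26, MRPS34, MRPS35, MRPS27 and MRPS5 the control spread was larger than the resveratrol spread and the groups overlapped.

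The log2 fold change was 0.11 (SE 0.28) for MRPS12, at the decoding centre, and 0.23 (SE 0.17) for MRPS7, of the head. Without control 2 these values were -0.14 and 0.10, and without control 3 they were 0.40 and 0.36. MRPS22, in which human mutations cause a mitochondrial disease of infancy, had a value of 0.18 (SE 0.16). MRPS30, named for the small subunit but located in the large one in structures of the mammalian particle, had a value of 0.21 (SE 0.18). MRPS25 and MRPS2 lay at -0.04 (SE 0.24) and at 0 to 2 decimals (SE 0.25). Counting MRPS30 and MRPS18A with the large subunit left its median at 0.25 and put that of the small subunit at 0.16.

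The 38 members with a bacterial counterpart had a median log2 fold change of 0.25, with 35 above 0. The 26 without one had a median of 0.18, with 24 above 0. In the large subunit the medians were 0.26 and 0.20, and in the small subunit 0.22 and 0.16. The difference was not tested, and the medians were not adjusted for level. Over the 64 members, the log2 fold change tended to be larger at higher mean TPM (Spearman's rho = 0.45).

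The library medians of the members lay further apart in control than in resveratrol. The deviation of each gene's log2 CPM from its own mean over the 6 libraries had a large subunit median of 0.03, 0.07 and 0.27 in resveratrol 1, 2 and 3, against -0.15, -0.37 and 0.11 in control 1, 2 and 3. For the small subunit it was 0.08, 0.04 and 0.23 in resveratrol, against -0.17, -0.21 and 0.11 in control. The SD of these library medians was 0.13 in resveratrol and 0.24 in control for the large subunit, and 0.10 in resveratrol and 0.17 in control for the small subunit (n = 3 each). The wider control spread was not particular to the members. For mitoribosome assembly genes the SD was 0.05 in resveratrol and 0.19 in control, and for adipocyte markers 0.12 and 0.32. For mitochondrial translation factors it was 0.14 in both groups, and for macrophage markers 0.22 in resveratrol and 0.14 in control. In the medians of both subunits, control 3 lay above resveratrol 1 and 2, and resveratrol 3 was the highest library. Control 2 was the lowest library for 38 of 64 members and control 1 for 16, where over all rows tested control 2 was lowest for 27.8% and control 1 for 15.9%. Resveratrol 3 was the highest library for 39 of 64 members and control 1 for 0, where over all rows these shares were 18.7% and 18.5%.

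**Figure D3:**
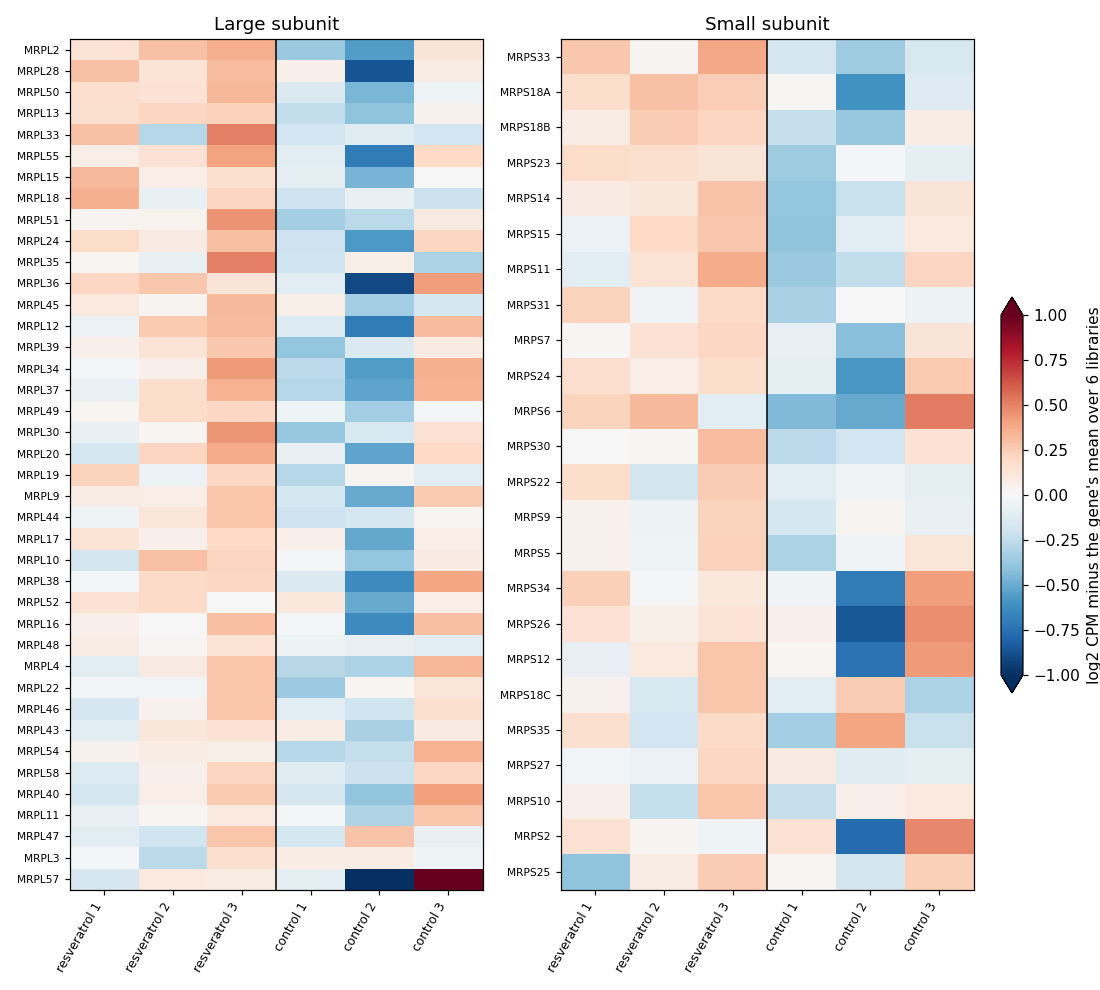
Log2 CPM (TMM-scaled counts) of each member in each library minus the gene's own mean over the 6 libraries, with resveratrol left of the line and control right of it, ordered by fold change. Control 2 is blue in most rows, control 3 is red in many, and MRPL57 has the extreme values in these 2 libraries. The colour scale stops at -1 and 1.

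**Figure D4:**
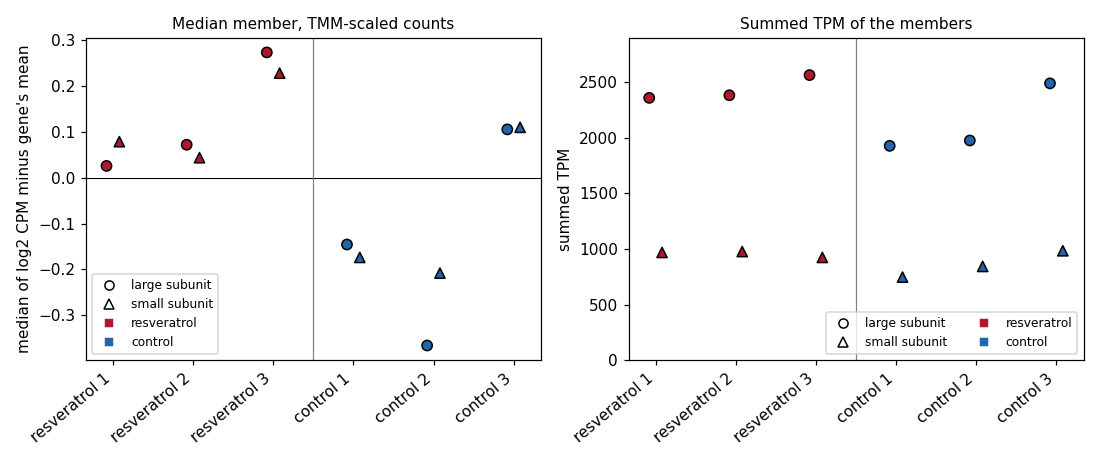
Left, median over the members of log2 CPM minus the gene's mean over the 6 libraries. Right, summed TPM of the members. Circles are the large and triangles the small subunit, red is resveratrol and blue is control, and 1 point is 1 library. Control 1 and 2 lie below the resveratrol libraries in the left panel, where control 3 lies among them. In the right panel the small subunit of control 3, at 984 TPM, is above all resveratrol libraries.

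The lowest and highest large subunit medians came from leaving out control 2 and control 3. Without control 2 the large subunit median was 0.11, with 31 of 40 members above 0 (51.3% of all rows), and the small subunit median was 0.18, with 19 of 24 above 0. Without control 3 the medians were 0.38 and 0.35, and 15 large and 6 small subunit members were higher at an unadjusted p under 0.05, against 4.29% of all rows. Without resveratrol 3 the medians were 0.17 and 0.13, and 0 members were higher at an unadjusted p under 0.05, against 1.21% of all rows. No member passed the adjusted threshold under any of these fits.

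**Figure D5:**
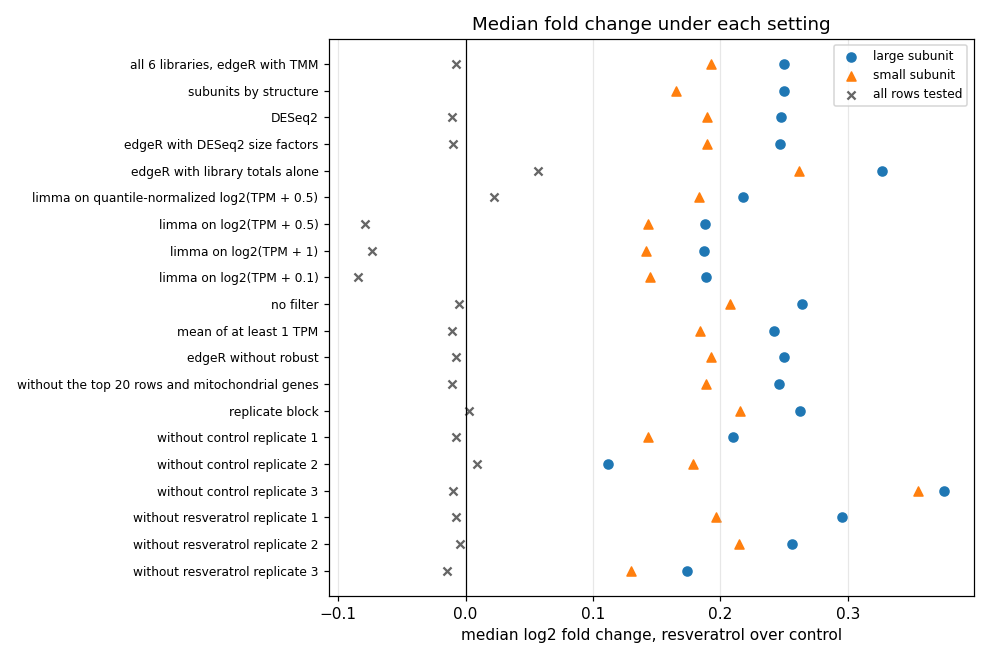
Median log2 fold change of the large subunit (circles), the small subunit (triangles) and all rows tested (crosses) under each setting. Both subunits stay above 0 and above all rows throughout, from 0.11 to 0.38 for the large subunit, and the settings without control 2 and without control 3 mark its lowest and highest values. The setting that counts subunits by structure has no cross.

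The spread between libraries was uneven among members. The within-group SD of log2 CPM had a median of 0.24 over the 64 genes, with a lowest value of 0.05 in MRPL48 and a highest of 0.96 in MRPL57. It exceeded 0.4 in 7 members, namely MRPL57, MRPS26, MRPL36, MRPS2, MRPS12, MRPS6 and MRPS34. In all 7, control 2 was the lowest and control 3 the highest library. MRPS35 and MRPL47 ran the other way, with control 2 the highest library. MRPS35 measured 7.27, 5.76 and 6.77 TPM in resveratrol, against 4.97, 10.1 and 5.41 TPM in control. Control 2 is also the library with the fewest reads, and the part of depth in these values was not tested.

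Summed over the members, the large subunit took 2359, 2383 and 2564 TPM in resveratrol, against 1928, 1976 and 2490 TPM in control. The small subunit took 969, 977 and 924 TPM in resveratrol, against 747, 843 and 984 TPM in control. The groups overlapped in both sums through control 3. Summed small over summed large TPM was 0.41, 0.41 and 0.36 in resveratrol and 0.39, 0.43 and 0.40 in control, so the balance of the subunits also overlapped. TPM sums depend on what else fills a library. One assembled locus, MSTRG.12981, took 18.8% to 22.2% of all TPM in resveratrol and 16.6% to 25.8% in control, with its highest share in control 1. In bulk tissue, fewer cells of a type and less RNA per cell cannot be told apart.

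No cell type marker passed the adjusted threshold in edgeR. DESeq2 called COL2A1, a tendon and cartilage marker (adjusted p = 0.0015), with a log2 fold change of -3.99 in edgeR, where DESeq2 called 0.268% of all rows. At an unadjusted p under 0.05 in edgeR, 4 macrophage markers and 1 adipocyte marker were higher, against 2.21% of all rows. At that threshold 3 tendon and cartilage markers were lower, against 4.32% of all rows. Of the adipocyte markers, 7 of 8 had a fold change above 0, with a median of 0.24, beside 0.23 for all 64 members. LEP (leptin) was the one below 0, at -0.67 (SE 0.35). Median deviations of adipocyte log2 CPM were 0.0025, 0.19 and 0.23 in resveratrol 1, 2 and 3. In control 1, 2 and 3 they were -0.25, -0.30 and 0.27. The adipocyte markers summed to 21372 to 27132 TPM in resveratrol and 17484 to 24425 TPM in control, with FABP4 the largest part. All 8 macrophage markers were above 0, with sums of 497 to 740 TPM in resveratrol and 403 to 481 TPM in control. All 5 tendon and cartilage markers were below 0, with sums of 4.86 to 8.75 TPM in resveratrol and 9.63 to 114 TPM in control, the highest in control 1. Endothelial markers were above 0 in 1 of 3, with a median of -0.22 and sums of 168 to 188 TPM in resveratrol and 180 to 239 TPM in control. T cell markers were above 0 in 3 of 3, with a median of 0.50 and sums of 6.39 to 16.2 TPM in resveratrol and 5.91 to 8.22 TPM in control. Red blood cell markers were above 0 in 3 of 4, with a median of 0.33 and sums of 1035 to 1214 TPM in resveratrol and 778 to 1113 TPM in control. Stromal progenitor markers were above 0 in 3 of 4, with a median of 0.06 and sums of 600 to 672 TPM in resveratrol and 380 to 781 TPM in control. No marker of the adipocyte, macrophage or tendon and cartilage lists was at 0. Their part in the mitoribosomal values was not tested.

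Mitoribosomal proteins that carry other symbols resembled the members. Of 5 such genes, 4 had a fold change above 0 and none passed the adjusted threshold in edgeR, and the median was 0.18 (0.07 without control 2, 0.35 without control 3). DAP3, a GTP-binding protein of the small subunit, measured 24.8, 24.8 and 28.7 TPM in resveratrol, against 18.8, 25.04 and 24.7 TPM in control, a log2 fold change of 0.29 (SE 0.17). AURKAIP1 and CHCHD1, of the small subunit, had values of 0.24 (SE 0.22) and 0.18 (SE 0.20). PTCD3, an RNA-binding protein at the messenger RNA entry, had a value of 0.15 (SE 0.16), and GADD45GIP1, of the large subunit, one near 0 (SE 0.21).

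The genes that build and serve the mitoribosome had median fold changes of 0.02 to 0.21, and again none passed the adjusted threshold in edgeR. Of 24 tested assembly genes, 20 were above 0, with a median of 0.14 (0.08 to 0.21 when 1 library was left out). RPUSD3, a pseudouridine synthase family protein of mitochondrial RNA, measured 13.1, 13.2 and 13.4 TPM in resveratrol, against 9.69, 10.4 and 9.34 TPM in control. Its groups did not overlap, and its log2 fold change was 0.52 (SE 0.16, unadjusted p = 0.00785, edgeR adjusted p = 0.733). DDX28, an RNA helicase of large subunit assembly, had a value of 0.44 (SE 0.24), and LACTB2, a ribonuclease of mitochondria and the most abundant of the list, averaged 40.9 ± 5.61 TPM in resveratrol and 39.9 ± 9.88 TPM in control (SD, n = 3 each).

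Of 18 tested translation factors and their partners, 13 were above 0, with a median of 0.21. MTRES1, a rescue factor of stalled mitoribosomes, measured 18.4, 13.9 and 18.6 TPM in resveratrol, against 13.0, 12.003 and 12.4 TPM in control. MRRF, which recycles the mitoribosome after termination, measured 16.9, 16.7 and 13.7 TPM in resveratrol, against 11.5, 15.1 and 11.5 TPM in control. Their log2 fold changes were 0.51 (SE 0.21) and 0.40 (SE 0.16), and scaled counts did not overlap in either gene. TUFM, the elongation factor that delivers tRNA, had a value of 0.03 (SE 0.21). SLIRP, which stabilizes mitochondrial messenger RNAs, was the most abundant of the list at 86.2 ± 12.2 TPM in resveratrol and 74.8 ± 15.6 TPM in control (SD, n = 3 each). The median of this list was 0.08 both without control 1 and without resveratrol 3.

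Of 19 tested genes for the charging of mitochondrial tRNAs, 15 were above 0, with a median of 0.14 (0.05 without control 2, 0.24 without control 3). FARS2, the phenylalanine enzyme, went the other way at -0.46 (SE 0.20, edgeR adjusted p = 0.733), with 19.2, 24.9 and 18.6 TPM in resveratrol, against 23.0, 42.7 and 26.8 TPM in control. WARS2, the tryptophan enzyme, had a value of 0.34 (SE 0.17), and GATC, a subunit of the enzyme that makes glutamine tRNA and the most abundant of the list, one of 0.26 (SE 0.17). The 21 genes of mitochondrial transcription and RNA processing had a median of 0.02, with 13 above 0 (-0.02 without resveratrol 1, 0.11 without control 2). TFAM, which packs mitochondrial DNA and starts its transcription, averaged 16.4 ± 1.85 TPM in resveratrol and 16.4 ± 2.44 TPM in control (SD, n = 3 each). TEFM, the elongation factor of the mitochondrial RNA polymerase, and FASTK, an RNA-binding protein, had values of 0.48 (SE 0.23) and 0.34 (SE 0.20). HSD17B10, a subunit of the mitochondrial RNase P and the most abundant of the list, had a value of 0.34 (SE 0.24).

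The messenger RNAs that the mitoribosome translates lay on the other side of 0. Of the 13 mitochondrially encoded protein genes, 12 were below 0, with a median of -0.59, which was -0.25 without control 2. Of these, 6 had an unadjusted p under 0.05 in edgeR, where 4.32% of all rows were lower at that threshold. None passed the adjusted threshold (smallest edgeR adjusted p = 0.733). Together the 13 genes took 10284, 9615 and 10399 TPM in resveratrol 1, 2 and 3, against 8743, 19209 and 11201 TPM in control 1, 2 and 3. Control 2 was thus the highest library for the mitochondrial messenger RNAs. In CPM it was the lowest library for 38 of 64 mitoribosomal proteins, whereas in summed TPM control 1 was the lowest for both subunits. In the TPM sums of the 13 genes the resveratrol libraries lay between control 1 and control 3. COX1, the gene above 0, took the largest part. The median deviation of the 13 genes' log2 CPM from their own means was -0.21, -0.47 and -0.18 in resveratrol, against -0.01, 0.99 and -0.01 in control, so that every resveratrol library lay below every control library. Singly, 4 of the 13 genes (ND1, ND2, ND3 and CYTB) were lower without overlap in CPM, where this held for 6.97% of all rows.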

How the data were processed

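Total RNA of subcutaneous fat was sequenced after preparation with a kit for long RNAs, per the labels' protocols. Per the submitters' processing notes the tool was Bowtie 0.12.2 and the builds were mm8 and mm9, which are mouse genomes, while the rows carry pig gene identifiers. A pig build, a counter and the use of strand were not given in the sources used here, so no coordinates are printed. The deposited tables hold, per the file headers, a read count and a TPM value per gene, both made by the authors. A table of the whole series was not used.

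Read counts were tested with edgeR 4.0.16 (R 4.3.3; quasi-likelihood, robust, TMM scaling) over 14908 rows that averaged 0.5 TPM or more across the libraries, resveratrol over control, 3 libraries each, with Benjamini-Hochberg adjustment over all rows and a threshold of 0.05. The common biological coefficient of variation was 0.235. The SE is the absolute log2 fold change divided by the square root of F. The scripts were tested on simulated data. Alternatives used DESeq2 1.42.0, limma 3.58.1, other scalings, filters and pseudocounts, a block for the replicate number, and fits that left out 1 library.

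Members were named by role, by the highest and lowest mean TPM and by the smallest unadjusted p in each direction, and from each pathway list the smallest p and the highest TPM. MRPL48 was named for its spread, after its values were seen. TUFM and TFAM were named outside these rules. The members and lists were chosen with earlier results of these data known, and the list of mitochondrially encoded genes was added last. Bacterial counterparts are from textbook knowledge. Intervals and counts cover these libraries only.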

Additional observations from a re-analysis of the deposited data

How the results depend on the processing

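No member was called by any of the alternatives run. Over all rows, edgeR called 0, DESeq2 called 40, limma on quantile-normalized log2(TPM + 0.5) called 1, and fits that left out 1 library called 0 to 5, the 5 without control 2. Both subunit medians were positive under every alternative, while the median of all rows ran from -0.08 to 0.06. When 1 library was left out the large subunit median ran from 0.11 to 0.38 and the small subunit median from 0.13 to 0.35, with the highest values without control 3. Library totals alone gave 0.33 and 0.26, and limma on log2(TPM + 0.5) gave 0.19 and 0.14. With the replicate number as a block, 0 rows and 0 members were called, and the medians were 0.26 and 0.22. Same-numbered libraries had deviation correlations of 0.16, 0.07 and 0.20. The labels do not say whether equal numbers pair the libraries. Each library correlated best with its own number. These correlations are not independent, since the deviations within a group sum to 0, so they are at most a weak hint from the data. The fit without the block is the one reported. Of 684 values of the 38 named members under 18 alternatives, 666 moved by less than 1 SE, and 23 in 13 members differed in sign from the fit to all libraries. With 3 libraries a group and a median SE of 0.20, single-gene changes near the subunit medians were not detectable. The cause of the differences between settings was not tested.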
